A study of Mus musculus with 45 samples.

Results

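Lipoprotein receptors carry lipid-laden particles and many other ligands into the cell. The 6 genes described here were taken from the count table by symbol, out of 28454 genes listed, and were followed through all 45 libraries. They are Vldlr, Lrp1, Lrp8 and Lrp10 of the LDL receptor family, the HDL receptor gene Scarb1, and Mylip, which encodes the ubiquitin ligase that sends receptors of this family to lysosomes. They were selected on their counts in these same libraries, with the comparisons below already known, so their fold changes and adjusted p-values stand here as descriptions.

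As background, VLDLR binds triglyceride-rich particles that carry apolipoprotein E, and together with LRP8 (also called APOER2) it is a receptor for the signalling protein reelin. LRP1 is a very large endocytic receptor for lipoproteins, proteases and protease-inhibitor complexes, whereas SCARB1 takes cholesteryl esters out of HDL without swallowing the particle. Sterol-regulated transcription through SREBP2 raises cholesterol synthesis and uptake when cholesterol is low, LXR raises Mylip when cholesterol is high, and the transcription factor ATF4 drives many genes when amino acids run short.

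All cells came from mammary tumours of MMTV-cMYC mice, in which the mammary tumour virus promoter drives MYC, and were grown as established lines. MYAZ16.1e, MYAZ12.3i and MYAZ6.6g are lines from such tumours, and Myc310 is a single line from another. LM1, LM2 and LM3 were isolated from lungs after Myc310 cells had been injected into the mammary fat pad, and LM1-LM in turn from lungs after injection of LM1, with LM2-LM and LM3-LM as further lines of that generation. A MYAZ12.3i line that expresses NDI1, a yeast NADH dehydrogenase, completes the set. Every well received 250000 cells. After 24 h, control medium was given for 6 h, although the sources differ on which lines had this change, and the files do not settle it. For 4 lines, which are MYAZ16.1e and Myc310 followed by LM1 with its derivative LM1-LM, and whose values follow that order where lines are not named, further wells received medium without cysteine and cystine for the same 6 h, called deprived here. Each of the 15 groups holds 3 cultures, which the study's design text calls technical replicates, so p-values of the deprivation and NDI1 comparisons measure the spread between cultures of a line. In the subtype comparison the cultures of 3 lines were pooled, 1 line for Myc310, so its spread also holds differences between lines.

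Between 19517859 and 29019988 counts were assigned to genes per library, and in the 24 libraries of the deprivation comparison the ranges of control and deprived libraries overlapped. Levels are given as CPM, the count scaled to a common library size, after TMM scaling. Of the epithelial markers, Krt8 (219 to 1704 CPM over the group means) and Krt18 (99.0 to 546 CPM) were high in every line, while Epcam, Cdh1, Krt5 and Krt14 stayed under 1.14 CPM in every library. Among leukocyte markers Ptprc reached at most 0.233 CPM and Lyz2 0.0419 CPM, whereas Cd14 lay between 13.6 and 59.0 CPM. Of the fibroblast markers, Dcn and Lum stayed under 0.143 CPM, but Pdgfra reached a group mean of 55.4 CPM and Pdgfrb 37.6 CPM in the NDI1 line, and Col3a1 199 CPM in LM3-LM. Adipoq, Plin1 and Cidec were at or near 0, while Fabp4 was present in all libraries (16.2 to 163 CPM). The endothelial marker Kdr reached 6.26 CPM in MYAZ12.3i. The lines thus held the keratin messages Krt8 and Krt18, while the other epithelial markers listed were low or absent.

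Vldlr (ENSMUSG00000024924) lies on the forward strand of mouse chromosome 19 at 27216484 to 27254231 (GRCm38, GENCODE M21), and no other annotated gene overlaps it. RefSeq gives Vldlr 2 start sites, and promoter windows from 250 bases before to 50 bases after each start were searched on both strands for TGATGNAA (the core of the element bound by ATF4 with C/EBP proteins), CACGTG (the E-box) and TCACNCCAC (the sterol regulatory element). The window around the downstream start, chr19:27216770-27217069 (forward strand, GRCm38.p6), is shown because it held the only match found among the 8 windows of the 5 members that have one in the RefSeq table. The match, in capitals, is TTGCATCA, the reverse complement of the first motif, at chromosome 19, 27216820 to 27216827, and begins 200 bases before the start.
Vldlr downstream start: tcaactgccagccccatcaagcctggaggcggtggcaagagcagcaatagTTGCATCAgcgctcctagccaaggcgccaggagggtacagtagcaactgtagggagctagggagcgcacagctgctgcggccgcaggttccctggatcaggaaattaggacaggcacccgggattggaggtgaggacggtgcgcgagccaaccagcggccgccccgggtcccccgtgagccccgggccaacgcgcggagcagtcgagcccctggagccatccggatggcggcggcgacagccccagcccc
The first of 3 Lrp8 windows, chr4:107802635-107802934 (forward strand), is given for comparison, since Lrp8 is the receptor nearest to Vldlr in ligands and moved the other way under deprivation. It held none of the 3 motifs and is therefore in lower case throughout.
Lrp8 first start: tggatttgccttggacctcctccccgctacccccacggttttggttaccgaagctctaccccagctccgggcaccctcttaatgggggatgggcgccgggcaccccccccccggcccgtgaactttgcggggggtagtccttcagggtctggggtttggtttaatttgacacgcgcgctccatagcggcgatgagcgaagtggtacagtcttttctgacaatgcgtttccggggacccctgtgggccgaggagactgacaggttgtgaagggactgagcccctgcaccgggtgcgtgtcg
Of all 32851 promoter windows, 3.97% held TGATGNAA on either strand, 7.15% held CACGTG and 1.24% held TCACNCCAC. Counted by gene, 4.51% of 27025 genes held TGATGNAA in at least 1 window, as did 4 of 10 amino acid response genes and 1 of 7 sterol-regulated genes with a window. A match describes letters in a window and does not show that a factor binds there.

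The first comparison asked what 6 h without cystine did to these genes in lines of rising metastatic potential. Vldlr rose in all 4 lines and Lrp8 fell in all 4. Lrp1 rose in all 4 by a small amount, Scarb1 fell in all 4, Mylip fell in 3, and Lrp10 fell in 2. Among the members, Vldlr had the largest fold change in every line, and Lrp8 dropped furthest in LM1 and LM1-LM. The Vldlr protein itself was not measured, and in bulk libraries fewer expressing cells and less RNA per cell cannot be told apart.

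In MYAZ16.1e, Vldlr had 70, 61 and 76 counts in the 3 control cultures and 1350, 1262 and 1426 counts in the deprived ones. These correspond to 2.98 ± 0.47 CPM and 59.9 ± 2.8 CPM (SD, n = 3), and the groups did not overlap. The log2 fold change was 4.34 (SE 0.10, edgeR adjusted p = 3.2e-24). In Myc310, where Vldlr was already at 345, 323 and 310 counts, deprivation took it to 2111, 1953 and 2151 counts. The level went from 14.1 ± 0.45 to 93.7 ± 2.3 CPM (log2 fold change 2.72, SE 0.08, edgeR adjusted p = 1.8e-22). Myc310 thus held the most Vldlr in both media among the 4 lines, with a fold change smaller than that of MYAZ16.1e.

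LM1 and LM1-LM, the 2 lung-derived lines that were deprived, started from almost nothing. Of the lung-derived lines not deprived, LM2, LM3, LM3-LM and LM2-LM held 8.97, 2.31, 3.15 and 0.0558 CPM in control medium. LM1 had 2, 0 and 2 Vldlr counts in control medium and 112, 100 and 84 counts after deprivation, which is 0.0657 ± 0.057 against 4.54 ± 0.67 CPM. The ratio of the summed counts was 71.4, with a 95% exact counting interval from 27.6 to 264 that covers counting error only. LM1-LM had no Vldlr count in any of the 3 control cultures and 30, 11 and 17 counts after deprivation (0.833 ± 0.30 CPM). From summed counts, 58 in deprived LM1-LM cultures against a floor of 3 over the control group (0.0436 CPM), Vldlr was at least 19.8-fold higher. Deprived and control cultures did not overlap in either line, and both changes passed the test (edgeR adjusted p = 7.1e-16 in LM1 and 3.5e-09 in LM1-LM). The fitted fold changes of these 2 lines rest on controls at or near 0 and are left out.

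The gain in level followed another order than the fold change. Deprivation added 79.6 CPM of Vldlr to Myc310, 56.9 to MYAZ16.1e, 4.48 to LM1 and 0.833 to LM1-LM. Deprived LM1 therefore held less Vldlr than unstressed Myc310, with a 95% exact counting interval of the ratio from 2.72 to 3.54. Deprived LM1-LM lay below deprived LM1 by a factor of 5.27 (3.96 to 7.11) and below deprived Myc310 by a factor of 109 (84.0 to 143).

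**Figure D1:**
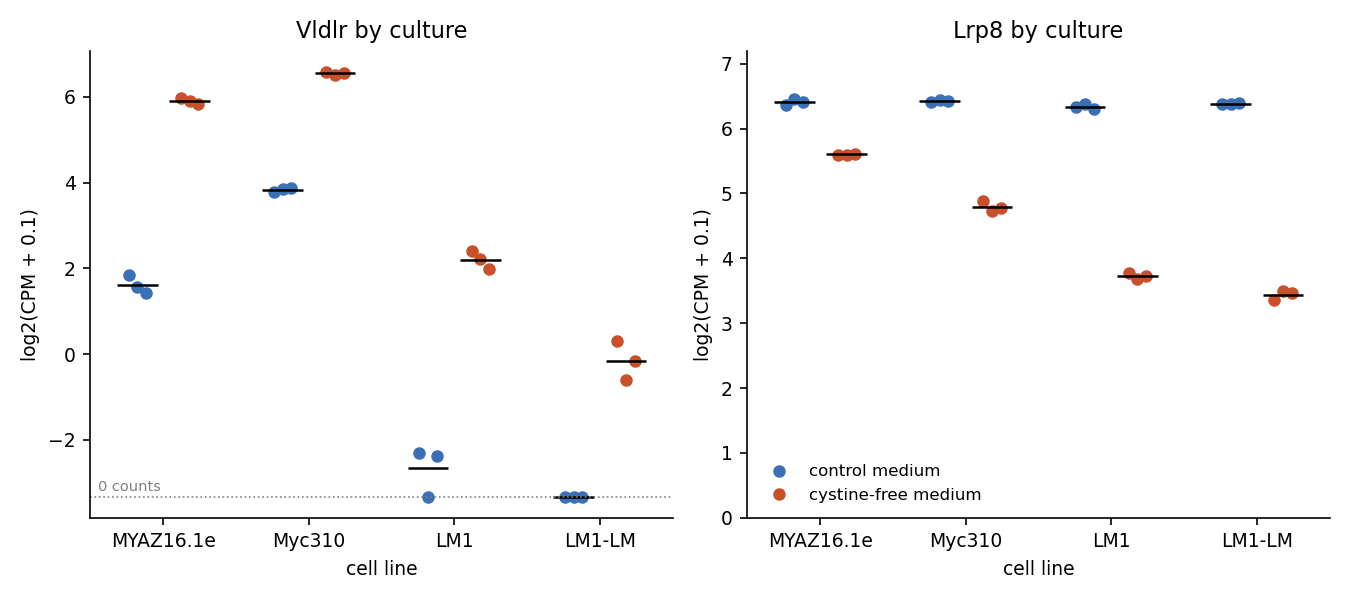
Vldlr (left) and Lrp8 (right) in each culture of the 4 deprived lines, on a log2 axis of CPM plus 0.1; blue points are control medium, red points cystine-free medium, and bars are the mean of 3 cultures. Vldlr rises in every line from very different starting levels, with LM1-LM controls at 0 counts, while Lrp8 starts between 79.1 and 87.3 CPM in every control culture and falls step by step from MYAZ16.1e to LM1-LM.

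Lrp8 (ENSMUSG00000028613, chromosome 4, 107802261 to 107876840, forward strand) moved the opposite way from a shared starting level. Control cultures of the 4 lines held between 79.1 and 87.3 CPM. Deprived MYAZ16.1e cultures held 48.3, 48.2 and 48.9 CPM, and those of Myc310 held 29.5, 26.3 and 27.2 CPM. The deprived LM1 cultures were at 13.6, 12.7 and 13.2 CPM, and for LM1-LM the values were 10.2, 11.1 and 10.9 CPM. The deprived groups were separated from each other as well as from their controls. The log2 fold change was -0.82 in MYAZ16.1e (SE 0.04, edgeR adjusted p = 1.2e-17) and -1.65 in Myc310 (SE 0.04, edgeR adjusted p = 4.7e-25). It was -2.58 in LM1 (SE 0.05, edgeR adjusted p = 8.3e-29) and -2.92 in LM1-LM (SE 0.05, edgeR adjusted p = 5.9e-30). Antisense genes overlap Lrp8, of which Lrp8os2 had 0 counts in every library and Lrp8os1 is not used here.

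Because levels of different genes can be compared only per length, CPM was divided by the merged exon length of each gene. In control medium MYAZ16.1e held 8.08 ± 0.22 CPM per kb of Lrp8 and 0.296 ± 0.047 of Vldlr, and after deprivation 4.61 ± 0.033 and 5.95 ± 0.28. Vldlr thus went from 3.54% ± 0.62 of the sum of both reelin receptors to 56.3% ± 1.3 (SD, n = 3). In Myc310 its share went from 14.6% ± 0.36 to 78.0% ± 0.67. In LM1 it went from 0.0859% ± 0.075 to 26.4% ± 2.7, and in LM1-LM from no count to 7.52% ± 2.8. Vldlr became the more abundant of the 2 messages, per length, in MYAZ16.1e and Myc310, and Lrp8 remained the more abundant in LM1 and LM1-LM. Merged exon length need not equal that of the transcripts expressed, which were not examined, and the SD does not cover this.

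Lrp1 (ENSMUSG00000040249, chromosome 10, 127538161 to 127621148, reverse strand) encodes the largest of these receptors and rose in all 4 lines. In MYAZ16.1e it had 332, 356 and 332 CPM in control and 436, 404 and 423 CPM in deprived cultures. MYAZ16.1e had a log2 fold change of 0.30, Myc310 of 0.37, LM1 of 0.39 and LM1-LM of 0.33, each with an SE of 0.07 (edgeR adjusted p between 1.1e-05 and 0.00070). In LM1-LM the groups overlapped, since control cultures held 457, 519 and 679 CPM against 675, 688 and 665 CPM in the deprived ones. This 1 culture moved the value, since without replicate 3, which includes it, the LM1-LM difference was 0.52 (edgeR adjusted p = 2.7e-09), and without replicate 1 it was 0.21, with the call kept in all 3 such fits.

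Scarb1 (ENSMUSG00000037936, chromosome 5, 125277087 to 125341094, reverse strand) fell in all 4 lines, with no overlap between groups. MYAZ16.1e went from 141 ± 4.8 to 116 ± 2.6 CPM and Myc310 from 176 ± 8.1 to 138 ± 7.0 CPM. LM1 went from 195 ± 5.6 to 157 ± 6.5 CPM, and LM1-LM, which began highest, from 236 ± 7.5 to 201 ± 6.9 CPM. The log2 fold changes ran from -0.37 in Myc310 to -0.19 in LM1-LM (SE 0.04, edgeR adjusted p between 1.6e-09 and 4.2e-05). The overlapping gene Gm42633 on the same strand had at most 4 counts in a library, against at least 2372 for Scarb1.

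Mylip (ENSMUSG00000038175, chromosome 13, 45389742 to 45412022, forward strand) was a low message. It fell from 10.6 ± 0.73 to 7.62 ± 0.51 CPM in MYAZ16.1e (log2 fold change -0.48, SE 0.12, edgeR adjusted p = 0.0017). In LM1 it fell from 7.70 ± 0.92 to 4.33 ± 0.67 CPM (-0.79, SE 0.14, edgeR adjusted p = 9.6e-06), and in LM1-LM from 5.76 ± 0.35 to 3.04 ± 0.56 CPM (-0.87, SE 0.15, edgeR adjusted p = 6.5e-06). In Myc310 the groups overlapped, at 8.09, 8.23 and 9.91 CPM in control and 9.64, 7.32 and 7.38 CPM in deprived cultures. The Myc310 difference of -0.12 (95% interval -0.36 to 0.13) did not pass the test (edgeR adjusted p = 0.42).

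Lrp10 (ENSMUSG00000022175, chromosome 14, 54464137 to 54471497, forward strand), a family member that shuttles between Golgi and endosomes, changed little. It fell from 130.1 ± 4.2 to 114 ± 3.4 CPM in MYAZ16.1e (log2 fold change -0.19, SE 0.04, edgeR adjusted p = 4.2e-05) and from 145 ± 5.3 to 129 ± 5.1 CPM in Myc310 (-0.19, SE 0.04, edgeR adjusted p = 3.1e-05). In LM1 the difference was -0.07 (95% interval -0.14 to -0.00045, edgeR adjusted p = 0.079) and in LM1-LM -0.01 (95% interval -0.08 to 0.06, edgeR adjusted p = 0.86). Both outcomes depended on the processing, since upper-quartile normalization gave -0.15 in LM1 (edgeR adjusted p = 0.00049) and -0.09 in LM1-LM (edgeR adjusted p = 0.023), and RLE normalization -0.08 in LM1 (edgeR adjusted p = 0.038). LM1 also passed with DESeq2 (-0.09, adjusted p = 0.038) and without replicate 1 (-0.08, edgeR adjusted p = 0.044).

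Counted together, 6 of the 6 members passed the test in MYAZ16.1e, where 53.7% of the 13400 genes tested did. In the other lines 5 of 6 passed, against 66.8% of genes for Myc310, 71.1% for LM1 and 72.4% for LM1-LM. In each line 2 members were higher, beside 26.6%, 32.8%, 35.8% and 36.5% of genes in the 4 lines, and the 4, 3, 3 and 3 others that passed were lower, beside 27.1%, 33.9%, 35.3% and 35.9%. Control and deprived cultures did not overlap for 6, 5, 5 and 5 members, beside 58.9%, 69.4%, 73.4% and 74.0% of genes. With most genes moving, a member's call alone says little. The median over the 6 members lay between -0.24 and -0.10, beside medians between -0.01 and 0.00 over all genes tested. Of the markers of other cell types, Cd14 rose by 0.46, 0.80, 1.34 and 1.43 in the 4 lines, and Fabp4 by 0.75, 0.96 and 0.94 in the last 3, while the summed fibroblast markers moved in both directions without overlap. Their sum spanned 7.46 to 10.1 CPM in control and 10.7 to 11.8 CPM in deprived MYAZ16.1e cultures, and 1.70 to 2.16 against 2.68 to 2.81 CPM in Myc310. It spanned 15.1 to 17.6 CPM in control and 10.5 to 11.4 CPM in deprived LM1 cultures, and 57.6 to 63.6 against 26.9 to 29.2 CPM in LM1-LM. Ptprc and Lyz2 were at 0 in all LM1 and LM1-LM cultures, and the part of these markers in the responses was not tested.

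**Figure D2:**
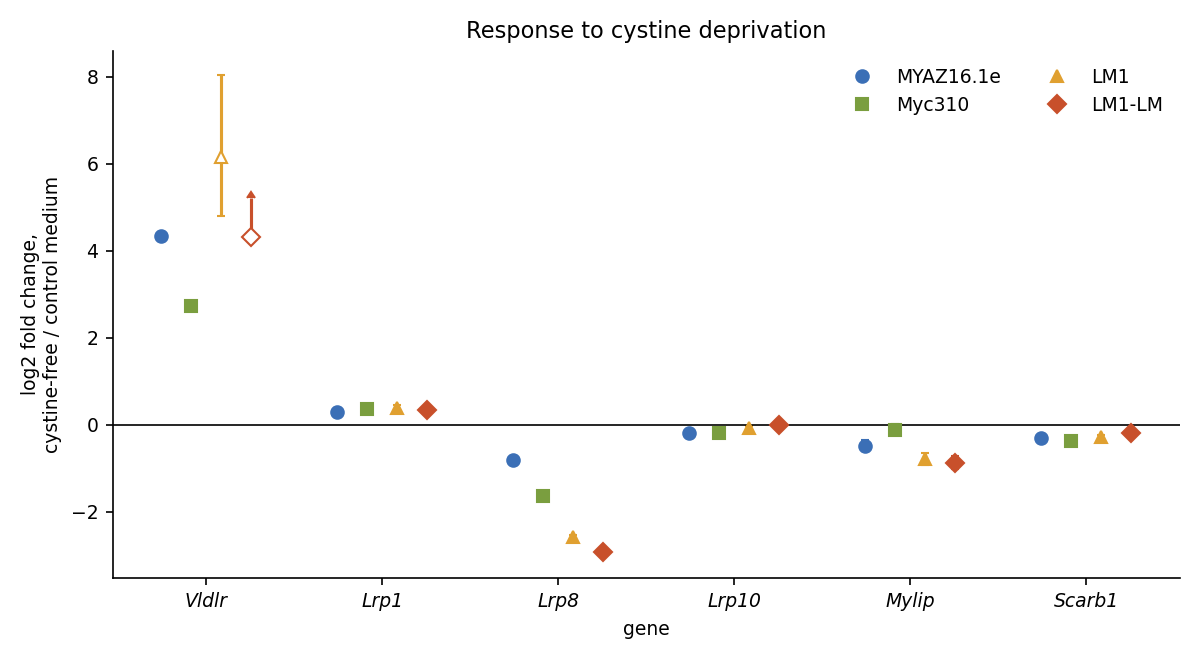
Log2 fold change between cystine-free and control medium for the 6 genes in the 4 lines; filled symbols are edgeR estimates with bars of 1 SE, mostly smaller than the symbol. Open symbols for Vldlr are ratios of summed counts, with the 95% exact counting interval in LM1 and the lower bound with an arrow in LM1-LM; Vldlr lies at 2.72 or higher in all lines, Lrp8 between -0.82 and -2.92, and the other genes within 1 of 0.

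Whether the lines responded differently was tested as an interaction, with MYAZ16.1e as the reference. For Lrp8 the fall was larger in all 3, with a log2 difference of responses of -0.83 for Myc310 (SE 0.05, edgeR adjusted p = 5.1e-13), -1.77 for LM1 (SE 0.06, edgeR adjusted p = 3.0e-20) and -2.10 for LM1-LM (SE 0.06, edgeR adjusted p = 6.3e-22). For Vldlr the rise in Myc310 was smaller (-1.62, SE 0.13, edgeR adjusted p = 1.4e-10). The Vldlr differences of LM1 (1.73, SE 0.56, edgeR adjusted p = 0.011) and LM1-LM (2.96, SE 1.2, edgeR adjusted p = 0.043) were computed against controls at or near 0 counts, so their sizes are uncertain. The lower bound of 19.8-fold in LM1-LM does not exceed the ratio of summed counts in MYAZ16.1e, 20.4. The direction of the LM1-LM difference is therefore open as well. The LM1 difference was 1.15 (edgeR adjusted p = 0.14) without replicate 2, and the LM1-LM difference passed in none of the 3 fits that left out a replicate number.

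Lrp10 fell less in LM1 (by 0.12, edgeR adjusted p = 0.050) and in LM1-LM (by 0.18, edgeR adjusted p = 0.0028) than in MYAZ16.1e. The LM1 call was lost in 6 of 8 alternatives, among them all 3 that left out a replicate number (adjusted p 0.078 to 0.15), RLE normalization (0.073), DESeq2 (0.075) and upper-quartile normalization, where the value was 0.04 (adjusted p = 0.55). The LM1-LM call was lost with upper-quartile normalization (0.10, adjusted p = 0.10) and without replicate 2 (0.17, adjusted p = 0.056). For Lrp1, Mylip and Scarb1 no interaction passed, but some did under other settings. Lrp1 in LM1 passed with no filter beyond 1 count (0.10, adjusted p = 0.025), and Mylip in LM1-LM with upper-quartile normalization (-0.48, adjusted p = 0.039). Without replicate 3, Lrp1 in LM1-LM (0.24, adjusted p = 0.0067), Mylip in Myc310 (0.57, adjusted p = 0.032) and Scarb1 in Myc310 (-0.17, adjusted p = 0.029) did. Without replicate 1, Mylip (-0.59, adjusted p = 0.045) and Scarb1 (0.19, adjusted p = 0.013) in LM1-LM did. The widest interval was that of Mylip in LM1-LM (-0.78 to -0.01) and the narrowest that of Scarb1 in LM1-LM (-0.0048 to 0.21). In all, 2 of 6 members were called in Myc310, where 40.3% of all genes were, 3 of 6 in LM1 (52.2%) and 3 of 6 in LM1-LM (54.8%). The LM1-LM calls include that of Vldlr, whose control group had no count. Both in Myc310 were negative, beside 20.4% of genes (19.8% positive), while in LM1 2 were positive (26.9% of genes) and 1 negative (25.3%), and in LM1-LM 2 were positive (28.4%) and 1 negative (26.4%). Of all genes called, 51.5% were higher in the LM1 contrast and 51.7% in the LM1-LM contrast, or 41.0% and 41.6% with upper-quartile normalization.

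Other receptors of the family were examined as a list. Of 11 tested genes, MYAZ16.1e had 5 calls (3 lower), Myc310 9 (8 lower), LM1 8 (6 lower) and LM1-LM 8 (6 lower), beside 53.7%, 66.8%, 71.1% and 72.4% of all genes called and 27.1%, 33.9%, 35.3% and 35.9% lower. The medians of the list were -0.09, -0.58, -0.54 and -0.52, beside medians between -0.01 and 0.00 over all genes. Lrp5, a Wnt co-receptor, fell by 0.41, 0.78, 1.22 and 1.34 in the 4 lines. Lrp11 fell in all 4 lines, by 0.27 to 0.63. Lrp12 rose in all 4, from 16.9 to 25.2 CPM in MYAZ16.1e (log2 fold change 0.57) and from 2.48 to 3.27 CPM in LM1-LM (0.45). Values of list genes in lines where the naming rule did not pick them, as for Lrp12 in LM1-LM, were added after they were seen.

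Among scavenger receptors, which bind modified lipoproteins and other anionic ligands, 6 of 12 were tested, and 2, 5, 3 and 2 passed in the 4 lines (2, 3, 0 and 0 of them higher), beside 53.7%, 66.8%, 71.1% and 72.4% of all genes, so the share lay below that of all genes in each line but Myc310. Scarf2 fell by 1.25, 1.60 and 1.95 in the lines other than MYAZ16.1e. Stab1 rose in MYAZ16.1e (by 0.77) and Myc310 (by 0.46). Scarb2, a lysosomal membrane protein, changed in both directions, since it rose by 0.33 in MYAZ16.1e and 0.18 in Myc310 and fell by 0.13 in LM1.

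Adaptors and chaperones decide whether these receptors fold, reach the surface and return from endosomes. Of 14 tested, 9 passed in MYAZ16.1e (2 higher, 7 lower) and 11 in each of the other lines (4, 5 and 5 higher), a share near the 53.7% to 72.4% of all genes. Mesd, a chaperone that folds the propeller domains of LRP5, LRP6 and related receptors, fell by 0.26, 0.53, 0.91 and 1.02, in LM1-LM to 62.3 CPM from 130.0. Dab2, an endocytic adaptor for NPxY tails, fell by 0.19, 0.48, 0.91 and 1.01 in these lines. Numb, another adaptor of that kind, rose by 0.27, 0.63, 0.97 and 0.98. Ube2d1, an E2 enzyme that can work with MYLIP, fell in all 4 lines, by 0.30 to 0.72.

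Of ligands and lipases, 13 were tested, and 9, 10, 7 and 6 passed in the 4 lines (5, 4, 2 and 3 of them higher), in LM1 and LM1-LM a lower share than the 71.1% and 72.4% of all genes. Plau, which encodes urokinase, rose by 0.22, 0.65, 0.87 and 1.06. Tfpi, at or below 0.055 CPM in MYAZ16.1e, fell by 0.57, 0.64 and 0.72 in the other 3 lines. Lipa, the lysosomal lipase that frees cholesterol from endocytosed particles, fell by 0.44, 0.48, 0.76 and 0.97.

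Of 11 sterol-regulated genes, 10 fell in MYAZ16.1e, Myc310 and LM1 and 9 in LM1-LM, beside 27.1%, 33.9%, 35.3% and 35.9% of all genes, with medians between -0.57 and -0.54. Insig1 dropped by 1.56, 1.62, 1.62 and 1.33 in the 4 lines, and Hmgcs1 by 1.18, 1.05, 0.92 and 0.81. Sqle fell by 0.46 in MYAZ16.1e and rose by 0.42, 0.64 and 0.73 in the other lines. Scap in MYAZ16.1e (-0.03, edgeR adjusted p = 0.38) and Fdps in LM1-LM (0.02, edgeR adjusted p = 0.81) did not pass. Of 7 tested LXR and efflux genes, 4, 3, 4 and 4 passed (2, 0, 1 and 1 of them higher), in the last 3 lines a lower share than the 66.8%, 71.1% and 72.4% of all genes. Scd2 fell in all 4 lines, from 724 to 495 CPM in MYAZ16.1e and from 592 to 186 CPM in LM1-LM. All 10 amino acid response genes rose in all 4 lines, beside 26.6%, 32.8%, 35.8% and 36.5% of all genes, with medians of 2.93, 2.46, 2.94 and 2.96. Chac1, which encodes a glutathione-degrading enzyme, rose by 5.94 in MYAZ16.1e and 6.31 in LM1-LM, and Atf4 rose from 214 to 676 CPM and from 139.9 to 830 CPM in these lines. Among the 4 lines, the deprived level of Vldlr was lowest in LM1-LM and that of Atf4 highest there. A link between the 2 genes was not tested.

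**Figure D3:**
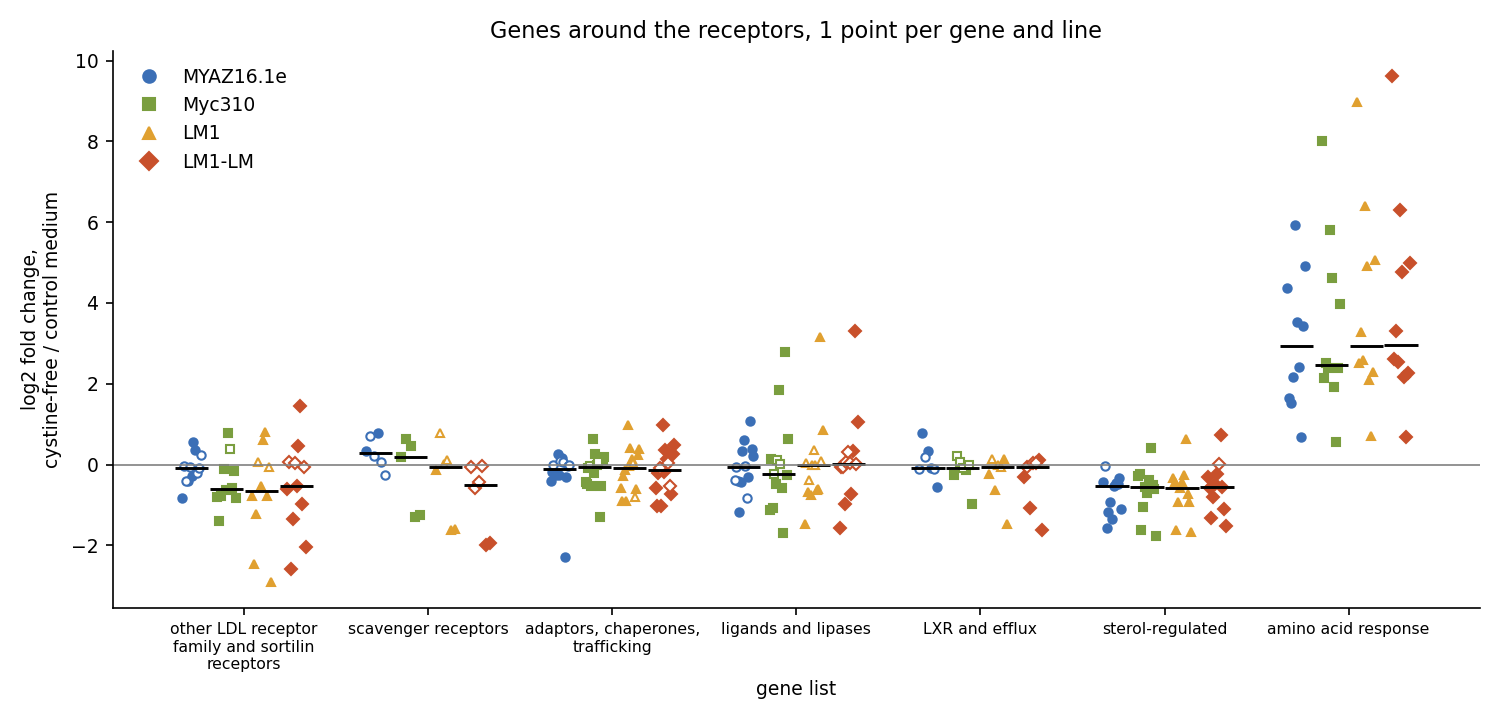
Log2 fold change under deprivation of the tested genes of 7 lists in the 4 lines, 1 point per gene (284 points; 4 with a group at 0 counts are not drawn), filled where the edgeR adjusted p was under 0.05, with a bar at the median of the drawn points. The amino acid response genes lie above 0 in every line, and 10, 10, 10 and 9 of the 11 sterol-regulated genes lie below 0 with a filled symbol.

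The second comparison asked how the genes differed between lines of low and high metastatic potential in control medium. Vldlr varied more than any other member, from no counts in LM1-LM to 14.1 ± 0.45 CPM in Myc310. With cultures as samples, Scarb1 and Lrp10 were called higher and Mylip lower in Myc310, LM and LM-LM than in MYAZ. With counts summed per line, no Lrp10 call remained, that of Mylip remained only in LM-LM, and those of Scarb1 in LM and LM-LM. No subtype difference of Lrp1 passed, and those of Lrp8 were small. Since the lines may differ in the medium change before collection, its part in these differences was not tested.

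For Vldlr the order in control medium was Myc310, MYAZ6.6g (9.19 ± 0.20 CPM), LM2 (8.97 ± 1.2), the NDI1 line (6.12 ± 0.25), MYAZ12.3i (5.53 ± 0.94), LM3-LM (3.15 ± 0.47), MYAZ16.1e (2.98 ± 0.47), LM3 (2.31 ± 0.030), LM1 (0.0657 ± 0.057), LM2-LM (0.0558 ± 0.048) and LM1-LM. Of the 10 pairs of neighbours in this order, 5 overlapped. These were MYAZ6.6g with LM2, the NDI1 line with MYAZ12.3i, LM3-LM with MYAZ16.1e, and both steps from LM1 through LM2-LM to LM1-LM. LM2-LM held 0, 2 and 2 counts. Lines of the same generation thus stood far apart, although all of them descend from Myc310. The level in Myc310 exceeded that in LM2 1.57-fold (95% exact counting interval 1.42 to 1.74), that in LM3 6.09-fold (5.16 to 7.22) and that in LM3-LM 4.46-fold (3.85 to 5.19). It exceeded that in LM1 221-fold (86.1 to 813) and that in LM2-LM 259-fold (101 to 954), and was at least 323-fold above LM1-LM.

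Averaged over lines, the subtypes overlapped. Vldlr stood at 5.90 ± 3.1 CPM in the MYAZ lines, 3.78 ± 4.6 in the LM lines and 1.07 ± 1.8 in the LM-LM lines (SD, n = 3 lines). The exact permutation test over line means, two-sided, gave p = 0.40 for LM and p = 0.20 for LM-LM, where 3 lines against 3 cannot go below 0.10. With cultures as samples, LM-LM was lower by 2.47 (SE 0.86, edgeR adjusted p = 0.014). This call was lost with counts summed per line (edgeR adjusted p = 0.36), without replicate 2 or 3, and when MYAZ6.6g, LM1-LM (-1.89) or LM2-LM (-1.91) was left out, and without LM3-LM the value was -7.49. Myc310 (1.25, 95% interval -0.80 to 3.30, edgeR adjusted p = 0.33) and LM (-0.63, 95% interval -2.19 to 0.94, edgeR adjusted p = 0.52) did not pass against MYAZ, and LM passed only when LM2 was left out (-2.28, adjusted p = 0.040).

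Scarb1 separated the MYAZ lines from the lung-derived ones. The line means were 121 ± 17 CPM in MYAZ, 193 ± 5.1 in LM and 212 ± 31 in LM-LM (SD, n = 3 lines). MYAZ lines did not overlap with LM or LM-LM lines, which overlapped each other, and Myc310 stood at 176 ± 8.1. The log2 differences from MYAZ were 0.53 in Myc310 (SE 0.09, edgeR adjusted p = 1.9e-05), 0.67 in LM (SE 0.07, edgeR adjusted p = 7.0e-10) and 0.79 in LM-LM (SE 0.07, edgeR adjusted p = 2.5e-11). LM1-LM was highest at 236 ± 7.5 CPM, followed by LM2-LM at 224 ± 2.2, and MYAZ12.3i was lowest at 109 ± 2.9. With counts summed per line the LM and LM-LM differences still passed, with adjusted p-values of 0.0059 and 0.0028, and that of Myc310 did not (adjusted p = 0.084).

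Mylip ran in the opposite direction. Line means were 13.0 ± 2.1 CPM in MYAZ, 8.34 ± 0.59 in LM and 6.41 ± 1.4 in LM-LM (SD, n = 3 lines). Again MYAZ lines stood apart from LM and LM-LM lines, which overlapped each other, although Myc310 cultures overlapped those of MYAZ16.1e. The log2 differences were -0.58, -0.64 and -1.04 (edgeR adjusted p = 0.0027, 7.2e-06 and 1.6e-09). With counts summed per line Mylip passed in LM-LM (adjusted p = 0.0085) but not in Myc310 (0.26) or LM (0.057), and with line as a random block its Myc310 call was lost (adjusted p = 0.14). That Myc310 call was also lost without replicate 1 (-0.52, edgeR adjusted p = 0.056). Lrp10 was higher by 0.28, 0.24 and 0.25 (edgeR adjusted p = 0.0013, 0.00017 and 0.00011), with LM1 at 130.1 ± 6.2 CPM overlapping MYAZ16.1e. These Lrp10 calls rest on cultures as samples, since with counts summed per line none of the 3 passed (adjusted p = 0.20, 0.094 and 0.076), and with line as a random block that of Myc310 did not (adjusted p = 0.088). The exact permutation p over line means was 0.10, the smallest possible, for Scarb1 and Mylip in both subtypes and for Lrp10 in LM-LM, and 0.24 after adjustment over the 12 tests.

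Lrp8 spanned only 61.9 CPM in MYAZ12.3i to 95.8 CPM in LM2-LM, a factor of 1.55. It was called higher in Myc310 (0.22, edgeR adjusted p = 0.036) and LM-LM (0.19, edgeR adjusted p = 0.0077), calls that were lost with counts summed per line, with line as a random block, and when MYAZ12.3i was left out (0.11 and 0.09). The Myc310 call was also lost without any of the 3 replicate numbers (adjusted p = 0.14, 0.074 and 0.13) and without MYAZ6.6g (0.063), and the LM-LM call without replicate 1 (0.064) or 3 (0.056) and without LM2-LM (0.11, adjusted p = 0.14). Lrp1 ran from 340.0 ± 14 CPM in MYAZ16.1e to 643 ± 29 in MYAZ6.6g, so the widest gap lay inside the MYAZ subtype, and none of its 3 subtype differences passed (-0.15, 0.07 and -0.06 in Myc310, LM and LM-LM). Without MYAZ16.1e they passed in Myc310 (-0.38) and LM-LM (-0.29). In total 4 of 6 members were called in Myc310, 3 of 6 in LM and 5 of 6 in LM-LM, beside 50.9%, 60.8% and 62.8% of the 13795 genes tested. Higher were 3, 2 and 3 members (23.8%, 30.3% and 30.5% of genes) and lower 1, 1 and 2 (27.1%, 30.5% and 32.3%), and cultures did not overlap with those of MYAZ for 3, 2 and 2 members (44.8%, 27.5% and 27.0%). With counts summed per line the members called became 0 (none of the 6), 1 (Scarb1) and 2 (Scarb1 and Mylip). Beside them, 1429, 3788 and 4226 of the 16017 genes tested in that fit were called. Markers of other cell types moved with these groups as well, since 4, 4 and 5 of 5 tested fibroblast markers were called, of which 4, 3 and 4 were lower, with medians of -3.66, -2.61 and -2.73. Their summed level, in which Col3a1 weighs heavily in LM3-LM, spanned 7.46 to 98.1 CPM over MYAZ cultures, 1.70 to 2.16 over Myc310, 15.1 to 125 over LM and 34.1 to 217 over LM-LM. The 1 tested adipocyte marker, Fabp4, was higher in LM (1.51) and LM-LM (1.79), and the 1 tested leukocyte marker in Myc310 (0.69) and LM (0.51). Summed endothelial markers spanned 3.57 to 7.08 CPM over MYAZ cultures and reached at most 0.953 CPM in Myc310, LM and LM-LM cultures. Their part in the differences of the 6 genes was not tested.

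**Figure D4:**
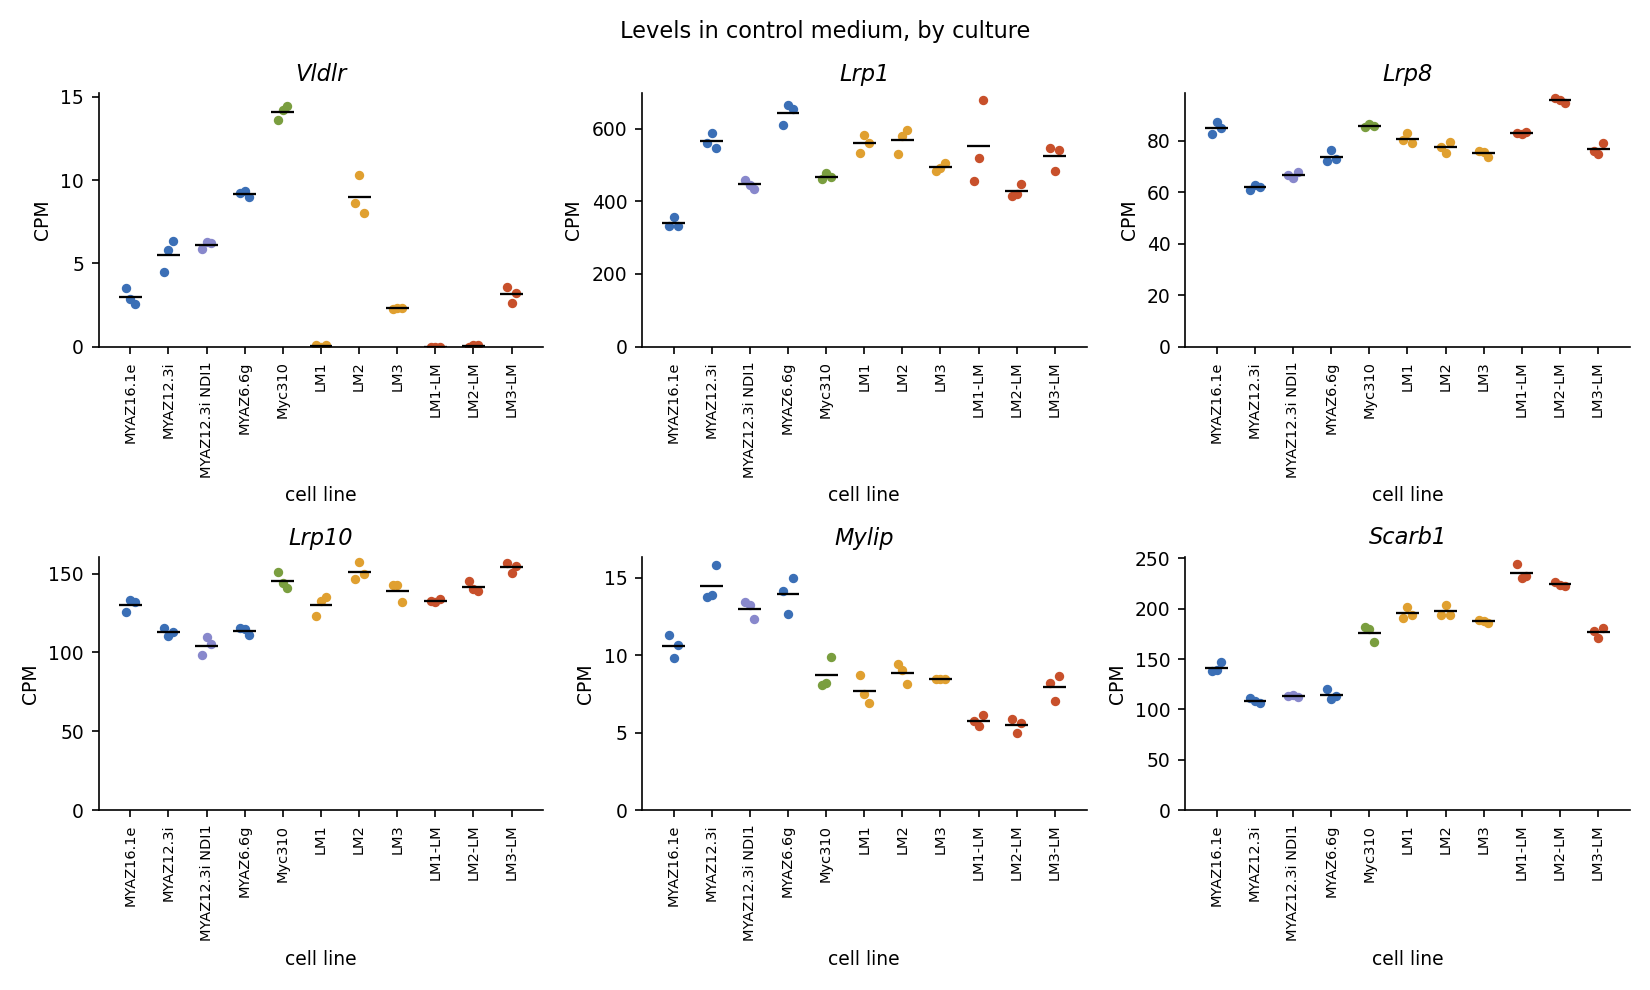
CPM of the 6 genes in control medium for each culture of the 11 lines, with bars at the mean of 3 cultures; blue is MYAZ, violet the NDI1 line, green Myc310, yellow LM and red LM-LM, and every axis starts at 0. Vldlr is near 0 in LM1, LM1-LM and LM2-LM, Scarb1 lies higher and Mylip lower in the Myc310 lineage than in MYAZ, and 1 LM1-LM culture stands apart in Lrp1 at 679 CPM.

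Related genes were read in the same comparison of subtypes. Of 11 tested receptors of the family, 8, 7 and 7 were called in Myc310, LM and LM-LM, beside 50.9%, 60.8% and 62.8% of all genes, so in LM and LM-LM the share was near that of all genes. Sort1, a sorting receptor, was higher by 2.08, 2.68 and 3.08 from a MYAZ mean of 6.83 CPM, and Lrp5 stood at 341, 267 and 269 CPM against 159 in MYAZ. Lrpap1, the chaperone that keeps ligands off LRP1 in the endoplasmic reticulum, was higher by 1.06, 0.86 and 0.98. Dab2 was lower by 2.39, 1.54 and 1.75. Among ligands, Tfpi was nearly absent from MYAZ (0.0183 CPM) and reached 31.3, 38.3 and 50.3 CPM in Myc310, LM and LM-LM, whereas Thbs1 stood at 90.8 CPM in MYAZ against 1.67, 4.17 and 3.02 CPM. Of 8 tested LXR and efflux genes, 6, 6 and 5 were called, beside 50.9%, 60.8% and 62.8% of all genes. Of these, 3, 4 and 3 were higher, beside 23.8%, 30.3% and 30.5% of all genes. Nr1h3, the LXR alpha gene, was higher by 2.12, 1.84 and 1.85, and Abcg1, an LXR target for cholesterol efflux, by 1.57, 1.76 and 1.61. Srebf1, another LXR target, was higher by 0.28, 0.38 and 0.39. Abca1, also an efflux transporter, stood at 6.83 CPM in MYAZ against 0.675 CPM in Myc310 (log2 difference -3.33) and 15.9 CPM in LM (1.22), and its LM-LM difference did not pass (0.88, edgeR adjusted p = 0.099). Scd2 was lower in all 3 subtypes (-0.79, -0.63 and -0.59), as was Mylip. Cultures of LM and LM-LM overlapped those of MYAZ for both Abca1 and Scd2. Of 11 sterol-regulated genes, 9, 9 and 8 were lower, beside 27.1%, 30.5% and 32.3% of all genes. Hmgcs1 was lower by 1.07, 0.81 and 0.75 and Sqle by 1.14, 0.73 and 0.80. Of the amino acid response genes, 7 of 10 were called in each subtype, 2 higher and 5 lower, beside 50.9%, 60.8% and 62.8% of all genes called. Beside the same shares of all genes called, 6, 8 and 8 of 14 adaptors and chaperones and 11, 9 and 9 of 13 ligands and lipases were called. Of 9 tested scavenger receptors 5, 9 and 8 were called, again beside 50.9%, 60.8% and 62.8% of all genes. Among them was Scara5, which stood at 36.7 CPM in MYAZ against 4.63, 5.29 and 3.30 CPM.

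The NDI1 line was compared with its parent MYAZ12.3i; the yeast transcript itself is not a feature of the mouse gene table and could not be checked. Lrp1 was lower in the NDI1 line, at 460, 445 and 434 CPM against 561, 589 and 546 CPM, with no overlap (log2 fold change -0.35, SE 0.03, edgeR adjusted p = 1.0e-05). It was the 1 member of 6 to pass, where 17.4% of 12841 genes did and 9.27% were lower (8.14% higher). Cultures of the 2 lines did not overlap for 5 of 6 members, all but Vldlr, beside 34.7% of genes. Vldlr differed by 0.14 (95% interval -0.12 to 0.41, edgeR adjusted p = 0.51), Lrp8 by 0.10 (0.03 to 0.18, edgeR adjusted p = 0.075), Lrp10 by -0.12 (-0.19 to -0.04, edgeR adjusted p = 0.059), Mylip by -0.16 (-0.32 to -0.01, edgeR adjusted p = 0.18) and Scarb1 by 0.06 (-0.01 to 0.12, edgeR adjusted p = 0.27). Lrp10 passed with no filter beyond 1 count (-0.11, adjusted p = 0.031) and without replicate 2 (-0.17, adjusted p = 0.033). Markers of other cell types moved in this comparison as well, since 2 of 5 tested fibroblast markers, the 1 tested leukocyte marker (0.39) and the 1 tested adipocyte marker (0.25) were called higher. The summed fibroblast markers spanned 103 to 107 CPM in the NDI1 line and 93.7 to 98.1 CPM in MYAZ12.3i, and the part of these markers in the difference of Lrp1 was not tested. Of the lists, 9 of 11 sterol-regulated genes were higher, with a median of 0.20, while Lrp5 was lower by 0.11 and Scarf2 by 0.41.

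Over the 15 group means of log2 CPM, the genes whose pattern was most like that of Vldlr, among the 9091 genes that averaged 3 or more on the log2 CPM scale, were Coro6 (Pearson r = 0.91), Aak1 (0.91) and Magi1 (0.91). For Lrp8 they were St6galnac4, Atp23 and Mllt6 (each 0.99), for Lrp1 Lrrc49 (0.91), Atxn1 (0.90) and Os9 (0.87), and for Lrp10 Mrps25 (0.94), B3gnt3 (0.93) and Specc1 (0.92). For Mylip they were Btbd2, R3hcc1 and Ier5l (each 0.95), and for Scarb1 Cisd3 (0.96), Aen (0.96) and Ppp1cc (0.96). Among the members over the same groups, Vldlr ran against Scarb1 (r = -0.70) and Lrp1 against Lrp8 (-0.62), Vldlr and Lrp8 had an r of -0.21, Lrp10 and Scarb1 ran together (0.77), and Mylip ran with Lrp8 (0.64) and against Scarb1 (-0.66). These values describe 15 groups that share 11 lines, and no test was made on them.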

How the data were processed

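RNA was sequenced from poly(A)-selected libraries of 45 cultures. The authors aligned reads to GRCm38 with STAR, estimated gene abundance with RSEM and deposited raw whole-number counts per gene. Their processing notes name DESeq2 1.38.3 and R 4.2.2. Whether counting used strand is not given in the sources used here. Of the 28454 listed genes, 1438 had no count.

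From these counts, tests were run with edgeR 4.0.16 (quasi-likelihood, TMM scaling, genes kept by filterByExpr) in R 4.3.3, with Benjamini-Hochberg adjustment over all genes and a threshold of 0.05. The deprivation model used 24 libraries, the subtype model 30 control libraries and the NDI1 model 6. Adjusted p-values in the text come from these models. CPM values use TMM factors (0.925 to 1.04) over all 45 libraries, so a fold change and a ratio of CPM can differ slightly. Library totals ranged from 19517859 to 29019988 (median 22899900), and no pair of cultures matched within sampling noise.

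The members and gene lists were chosen with earlier results of these data known. From each list, per comparison, up to 4 genes were named, taking the largest absolute log2 fold changes among called genes that averaged 3 or more in log2 CPM and whose groups did not overlap. Some genes picked by this rule are not reported here. Alternatives were RLE and upper-quartile scaling, no filter beyond 1 count, a replicate block, DESeq2 1.42.0, leaving out each replicate number or line, counts summed per line, and limma 3.58.1 voom with line as random block. The scripts were tested on simulated data. Count ratios carry exact 95% intervals and a floor of 3 counts over a group, which cover counting error only.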

Additional observations from a re-analysis of the deposited data

Results flagged for a closer look

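In 18 sets of libraries checked for a value far from the others, 1 was found, and chance gives about 1 in 20. Lrp1 stood at 679 CPM in 1 LM1-LM control culture, the highest of 9 LM-LM control libraries, which come from 3 lines.

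The response to deprivation differed from that of MYAZ16.1e in 8 of 18 interaction tests of the members (edgeR, adjusted over all genes), while 40.3%, 52.2% and 54.8% of all genes did in the Myc310, LM1 and LM1-LM contrasts. For Vldlr the differences on the log2 scale were -1.62 for Myc310, 1.73 for LM1 and 2.96 for LM1-LM, the last 2 against controls at or near 0 counts. The LM1-LM call was lost without a filter, with DESeq2 and in each fit that left out a replicate number, and its direction is open. The LM1 call was lost without replicate 2. For Lrp8 they were -0.83, -1.77 and -2.10. For Lrp10 they were 0.12 in LM1, a call lost in 6 of 8 alternatives, and 0.18 in LM1-LM.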

How the results depend on the processing

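Of 192 deprivation values of the members under the alternatives, 185 kept their direction and call, and of 342 subtype values 303 did. Of 144 differences of responses 115 did, 14 lost a call, 7 gained one and 8 turned in direction. For Vldlr the LM1-LM response difference was 2.97 without a filter and 2.42 with DESeq2, neither of which passed. Summing counts by line gave -2.43 for LM-LM against MYAZ. Genes called against MYAZ numbered 7022, 8385 and 8661 of 13795 tested in Myc310, LM and LM-LM. With counts summed per line they numbered 1429, 3788 and 4226 of 16017, and with line as random block 2819, 4759 and 5054 of 13795. Upper-quartile scaling turned the response differences of Lrp10 in Myc310 (-0.0295), Scarb1 in LM1 (-0.0625) and Lrp1 in LM1-LM (-0.0563). With replicates or lines left out, Vldlr ranged from 1.15 to 2.28 (LM1 response), 2.54 to 3.20 (LM1-LM response), -2.28 to -0.0528 (LM) and -7.49 to -1.89 (LM-LM), and the NDI1 count from 898 to 1326, against 2236. Values near 0 that turned were Mylip in deprived Myc310 (-0.31 to 0.0430), Lrp10 in deprived LM1-LM (-0.0312 to 0.0068), the responses of Lrp10 in Myc310 (-0.0526 to 0.0616), Scarb1 in Myc310 (-0.17 to 0.0068), Scarb1 in LM1 (-0.0364 to 0.0705) and Lrp1 in LM1-LM (-0.0881 to 0.24), Lrp1 in Myc310 (-0.38 to 0.0403), LM (-0.16 to 0.25) and LM-LM (-0.29 to 0.13), and Lrp8 in LM (-0.0258 to 0.20). The cause was not tested.

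Replicate numbers did not pair the cultures, since 1 of 15 same-number correlations passed 0.1 (-0.39 to 0.30) and 4 cultures correlated best with their own number. With the replicate block, genes called under deprivation numbered 7142, 8938, 9494 and 9661, and 66 of 66 member values kept their call. Vldlr at 0 to 4 counts per group limits its folds in LM1, LM1-LM and LM2-LM.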
